A study of Mus musculus with 12 samples.

Results

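Open chromatin was examined around the genes for the signaling chains of the T cell receptor: Cd3g, Cd3d and Cd3e, which lie side by side on mouse chromosome 9 (the CD3 cluster), and Cd247 on chromosome 1. The members were the DNase I hypersensitive sites (DHSs) whose midpoint lay in the gene bodies or within 50 kb on either side, in mm10 coordinates. A DHS here is a region formed by merging the overlapping peaks of all 12 libraries. There were 64 such sites of 170207 on the autosomes and the X chromosome, 31 at the CD3 cluster (chr9:44919572-45059627) and 33 at Cd247 (chr1:165738681-165927277). Sites were numbered from 1 within each window in the order of their coordinates.

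DNase-seq maps open chromatin by sequencing the DNA that DNase I releases from nuclei. All cells came from C57BL/6J mice. LSK cells, the marrow fraction without lineage markers and with SCA1 and KIT, were used directly after isolation (3 libraries). DN1 cells (KIT++CD44+CD25-, 2 libraries) were sorted from LSK cells grown on the Notch ligand Delta1, densely fixed to the plate, without IL-7. DN2a cells (KIT++CD44+CD25+, 2 libraries) and DN2b cells (KIT+CD44loCD25+, 2 libraries) were sorted from the same kind of culture with IL-7 added. The IgG group (3 libraries) came from LSK cells grown on human IgG1 with no Notch ligand. The cultures shared stem cell factor, FLT3 ligand, IL-6 and IL-11. Stage and IL-7 both separate DN2 from DN1 libraries and cannot be told apart. According to the methods, DN libraries can stem from a common LSK isolate. The labels do not name these, so every test treated libraries as independent. Each exact permutation p is the share of divisions of these libraries with a difference at least as large as the one seen. Libraries that share an isolate are not independent, and the p-values do not allow for this.

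The T cell receptor cannot signal by itself. Its antigen-binding chains assemble with CD3γ, CD3δ and CD3ε (Cd3g, Cd3d and Cd3e) and with the ζ chain (Cd247), whose cytoplasmic tails carry immunoreceptor tyrosine-based activation motifs, the tyrosines that LCK phosphorylates and that recruit ZAP70. The CD3 genes are known as early marks of the T lineage, while the ζ chain also serves receptors of natural killer cells. Cd3g and Cd3d are transcribed away from each other, with start sites 1355 bp apart. Cd3e runs towards Cd3d, so that the ends of these 2 genes face each other across 11401 bp.

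Each library was deposited as a list of peaks 150 bp wide with a whole-number score and no read counts. Read depth is therefore unknown, and the list length (32952 to 111582 peaks) stands in its place. Replicate numbers follow the order of deposition and only name a library. The longest list was DN2b replicate 2 and the 3 shortest were the IgG lists. The score has no stated meaning, so its percentile among the peaks of the same list was used, with 0 where a list had no peak at the site. A value of 0 means that no peak was called, not that the chromatin was closed, and a percentile cannot tell more open cells from more openness per cell.

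The sorted markers and other lineages were checked at promoters, meaning a peak midpoint within 1 kb of the gene start. Kit and Cd44 were open in all 12 libraries, and Il2ra, which encodes the CD25 used to gate DN2 cells, was open in the 4 DN2 libraries and in no other. Ly6a, which encodes SCA1, had no promoter peak in any library. Of 5 natural killer and innate genes, 4 were open in each DN1 library, 2 to 3 in DN2a and 3 to 4 in DN2b, against 0 to 2 in LSK and 0 in IgG. Nkg7 was open in each of the 6 Delta1-cultured libraries, Ncr1 in none. Of 7 myeloid genes, 3 to 4 were open in LSK, 3 in each DN library and 4 to 6 in IgG, with Mpo and Elane at 0 in every DN library. Of 6 B cell genes, 2 were open in each LSK and DN library and 1 to 2 in IgG. Vpreb1 was open in all 12 libraries and Ebf1 in 10, while Cd79a, Cd79b and Pax5 had no promoter peak in any. Of 5 stem and progenitor genes, 4 were open in each LSK, DN1 and DN2b library, 3 to 4 in DN2a and 1 to 3 in IgG. Of 5 erythroid and megakaryocyte genes, 3 to 4 were open in DN1, 2 to 3 in DN2a and 2 in DN2b, against 3 in LSK and 0 in IgG. The natural killer and innate genes open on lists of equal length numbered 1 to 3 in DN1, 2 in DN2a and 2 to 3 in DN2b, against 0 to 2 in LSK. For the stem and progenitor genes these counts were 3 in DN1, 2 in DN2a and 2 in DN2b, against 4 in LSK and 1 to 3 in IgG, and for the erythroid and megakaryocyte genes 1 to 2 in DN1, 1 in DN2a and 0 in DN2b, against 2 to 3 in LSK. Myeloid genes numbered 2 in DN1, 2 to 3 in DN2a and 1 in DN2b, against 2 to 3 in LSK and 4 to 6 in IgG. B cell genes numbered 1 in DN1, 1 in DN2a and 1 to 2 in DN2b, against 2 in LSK and 1 to 2 in IgG. Ebf1 was then open in 5 libraries. The part of such cells in the results at the CD3 genes was not tested.

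Sequences were read from GRCm38 (the assembly behind mm10) on the plus strand. They are those of the sites at the members' starts and of sites with high DN2 values at each locus. Sites open in all 12 libraries and site 24 of Cd247 are not shown. Capitals mark 6-letter words of factors known in early T cells, found on either strand, and bases of annotated untranslated exons were left out. The words were TGGGAA for RBPJ, then CTTTGA for TCF1 and LEF1, AGATAA or also TGATAA for GATA factors, TGTGGT for RUNX factors, CAGCTG or else CAGGTG for E proteins, AGGAAG or else CCGGAA for ETS factors, and GAGGAA for PU.1. The GATA and ETS words can overlap, as can those of ETS factors and PU.1. The first 6 sites surround the CD3 cluster promoters and the ends of Cd3d and Cd3e, followed by the Mpzl2 site and the Cd247 window:
Site 12, upstream of Cd3g (chr9:44980432-44980581): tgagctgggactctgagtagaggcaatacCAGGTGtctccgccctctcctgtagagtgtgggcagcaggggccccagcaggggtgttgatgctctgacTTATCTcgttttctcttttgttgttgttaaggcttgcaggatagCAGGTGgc
Site 13, upstream of Cd3d (chr9:44981692-44981785): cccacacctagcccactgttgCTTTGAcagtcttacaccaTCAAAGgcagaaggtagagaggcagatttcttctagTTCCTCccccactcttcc
Site 17, downstream of Cd3e (chr9:44998202-44998401): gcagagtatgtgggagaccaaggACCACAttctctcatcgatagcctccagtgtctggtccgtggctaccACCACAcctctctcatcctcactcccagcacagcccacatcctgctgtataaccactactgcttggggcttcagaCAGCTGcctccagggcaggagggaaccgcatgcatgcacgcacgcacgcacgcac
Site 19, in Cd3e past its start (chr9:45009192-45009391): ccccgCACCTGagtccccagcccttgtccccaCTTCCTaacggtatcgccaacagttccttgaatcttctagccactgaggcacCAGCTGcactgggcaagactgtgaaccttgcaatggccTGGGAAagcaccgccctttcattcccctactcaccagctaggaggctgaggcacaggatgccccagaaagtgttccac
Site 20, at the Cd3e start (chr9:45009614-45009691): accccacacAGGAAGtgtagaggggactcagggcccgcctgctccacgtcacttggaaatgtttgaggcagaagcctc
Site 21, upstream of Cd3e (chr9:45010512-45010711): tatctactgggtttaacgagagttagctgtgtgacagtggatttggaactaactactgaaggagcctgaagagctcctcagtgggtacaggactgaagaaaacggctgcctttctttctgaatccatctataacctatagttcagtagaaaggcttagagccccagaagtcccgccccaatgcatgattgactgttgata
Site 27, in an Mpzl2 intron (chr9:45041392-45041591): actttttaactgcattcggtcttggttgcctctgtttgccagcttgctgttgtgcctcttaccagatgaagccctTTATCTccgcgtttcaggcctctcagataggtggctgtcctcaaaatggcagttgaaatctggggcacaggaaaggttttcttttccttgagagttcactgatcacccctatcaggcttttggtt
Cd247 site 3, in a Creg1 intron (chr1:165764132-165764331): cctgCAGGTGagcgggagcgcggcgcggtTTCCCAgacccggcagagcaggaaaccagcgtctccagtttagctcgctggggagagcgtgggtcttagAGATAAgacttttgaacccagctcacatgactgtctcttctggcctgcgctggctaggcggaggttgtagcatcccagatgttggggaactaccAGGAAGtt
Cd247 site 12, upstream of Cd247 (chr1:165788592-165788680): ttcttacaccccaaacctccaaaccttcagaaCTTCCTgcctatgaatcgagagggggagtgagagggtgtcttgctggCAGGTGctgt
Cd247 site 15, in a Cd247 intron (chr1:165811332-165811531): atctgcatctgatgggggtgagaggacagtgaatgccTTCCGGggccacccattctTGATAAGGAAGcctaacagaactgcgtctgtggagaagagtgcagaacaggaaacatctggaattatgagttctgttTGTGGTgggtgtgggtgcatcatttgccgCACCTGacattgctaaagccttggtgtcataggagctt

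These words are short and common. Over 200 bases centred on each of the 170207 sites, the RBPJ word was found in 16.8%, the TCF1/LEF1 word in 14.5%, the GATA words in 17.1%, the RUNX word in 26.9%, the E protein words in 27.9%, the ETS words in 43% and the PU.1 word in 28.6%. Among the 64 members the same words were found in 11, 11, 10, 22, 30, 29 and 13 sites, in that order. Each site above except sites 13, 21 and 27 of the CD3 cluster held an E protein or RUNX word or both in its 200 bases, the part left out included. The share of all sites with either kind was not counted, so this number has no background to be set against. Site 13, upstream of Cd3d, held the TCF1/LEF1 word on each strand. None of the 7 kinds of word was found in the 200 bases of site 21. A match is a string of letters and says nothing of binding.

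The first question was which sites were open in DN2 cells alone. At the CD3 cluster 5 of the 31 sites had a peak in each of the 4 DN2 libraries and no peak in the other 8, against 0.758% of all sites (1291 of 170207). They were sites 7, 12, 19, 21 and 22: one in a Ube4a intron, one at the Cd3g start and 3 at or upstream of the Cd3e start. At Cd247 none of the 33 sites had this pattern. At equal list lengths, with the 32952 highest peaks of each library, 4 of the 24 sites of the CD3 cluster had it. The share of all sites with the pattern was not counted at that length. In the comparison of the 4 DN2 libraries with the other 8, the smallest exact permutation p over 495 divisions of the libraries is 0.00202, which becomes 0.0784 after Benjamini-Hochberg adjustment over all sites. With the lists as deposited no site, in the windows or elsewhere, could thus pass an adjusted p of 0.05 in this comparison. The call depended on list length. On lists of equal length 6 of 24 sites of the CD3 cluster and 2 of 19 at Cd247 were higher in DN2 (each adjusted p = 0.0391, exact permutation test). Of all 76914 sites 4.14% were higher. No site of either window was lower, where only 790 of all 76914 sites were. The higher sites overlap sites 12, 19, 21, 22, 27 and 31 of the CD3 cluster and sites 15 and 24 of Cd247. With the lists as deposited, at an unadjusted p under 0.05 there were 18273 sites in all.

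**Figure D1:**
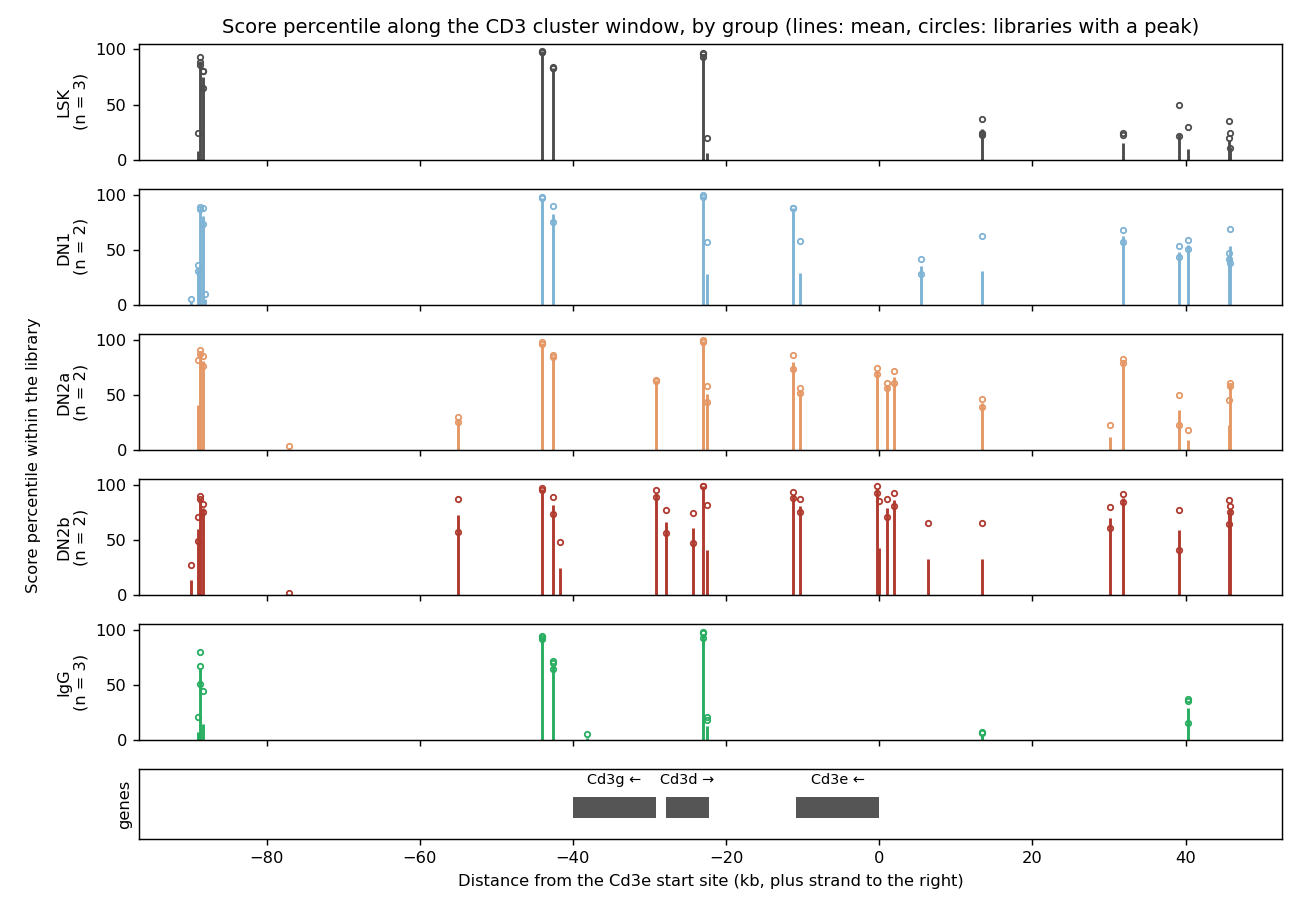
Score percentile within each library (0 to 100) against the distance in kb from the Cd3e start site along the CD3 cluster window, by group. Lines are group means with libraries without a peak counted as 0, circles are the libraries with a peak, and bars below are the genes with the direction of transcription. The sites within 2 kb of the Cd3e start and the site at the Cd3g start carried circles in DN2a and DN2b only, while the site just past the Cd3e end also did so in DN1.

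The Cd3g promoter was open in DN2 cells and in no other group. Site 12 is centred at -50.5 bp from the Cd3g start, where negative is upstream, and took percentiles of 63.6 and 62.5 in the DN2a libraries and 88.4 and 95.2 in the DN2b libraries. The 8 LSK, DN1 and IgG libraries had no peak there. The DN2 mean was 77.4 ± 16.9 (SD, n = 4). The exact permutation p was 0.00202, the smallest this division allows, and the adjusted p 0.0784. On lists of equal length the difference was 55.2 points and the adjusted p 0.0391. The groups did not overlap.

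Cd3e was covered by several DN2 sites. Site 19 lies in the gene, 335.5 bp past its start, and had the highest DN2 mean of the 5 sites with the DN2 pattern: 68.5 and 74.1 in DN2a and 92.7 and 98.8 in DN2b, with no peak in the other 8 libraries. Its DN2 mean was 83.5 ± 14.5 (SD, n = 4). Site 21, at -984.5 bp, took 56.5 and 61.0 in DN2a and 70.9 and 87.1 in DN2b. Site 22, at -1944.5 bp and outside the promoter window, took 60.9 and 71.1 in DN2a and 80.3 and 92.0 in DN2b. Neither had a peak in another library. Site 20, centred 35.5 bp past the start itself, was called only in DN2b replicate 2, the longest list, at 85.0. When peaks within 150 bp of each other were merged, sites 19 and 20 formed a single region open in the 4 DN2 libraries. Site 18, in the untranslated part of the last Cd3e exon, took 51.3 and 56.2 in DN2a, 75.2 and 87.1 in DN2b and 58.0 in DN1 replicate 1, with no peak in the other 7 libraries.

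At Cd3d, next to Cd3g, fewer libraries had peaks. Its promoter site 13, 5.5 bp past the start, was called only in the DN2b libraries, at 55.9 and 76.8. With a half-window of 2.5 kb in place of 1 kb the Cd3d promoter counted as open in 4 libraries, and in 12 when the start of any protein-coding transcript counted. The wider window takes in site 12 at the Cd3g start, open in the 4 DN2 libraries. Site 15, open in all 12 libraries, lies close to the start of a shorter Cd3d transcript. Site 14, in a Cd3d intron, was like site 13 called only in DN2b, at 47.0 and 74.3. The DN2a libraries had no peak at site 13 or site 14 although they had peaks at the Cd3g promoter, whose start is 1355 bp away. A start with peaks in both DN2b libraries and in no other library was found at 84 of 21755 protein-coding genes (0.386%). The differences between DN2a and DN2b were not tested, since 2 libraries against 2 cannot give an exact p below 0.333.

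**Figure D2:**
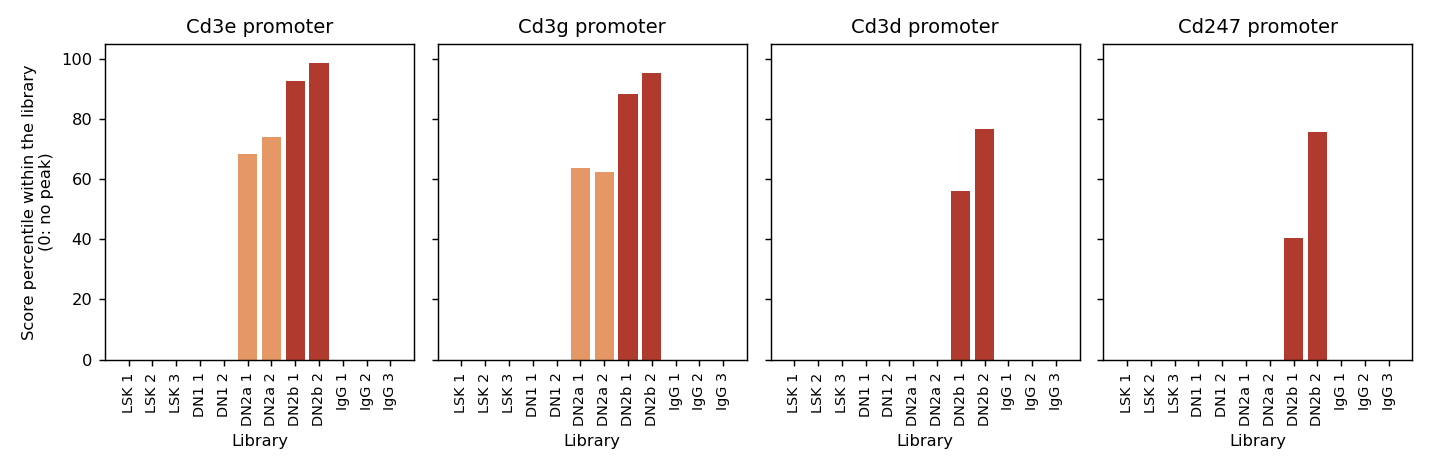
Highest score percentile (0 to 100) of a peak within 1 kb of the start of Cd3e, Cd3g, Cd3d and Cd247 in each of the 12 libraries, with 0 for no peak. Cd3e and Cd3g have bars in the 4 DN2 libraries, and Cd3d and Cd247 in the 2 DN2b libraries only.

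The farthest site with the DN2 pattern was site 7, in an intron of the ubiquitin ligase gene Ube4a, 25829.5 bp downstream of the Cd3g start. Its percentiles were 25.5 and 30.2 in DN2a and 57.5 and 86.7 in DN2b. At all 5 sites both DN2b libraries stood above both DN2a libraries, an order seen after the values were known. Of the 1291 sites with the DN2 pattern in the genome, 61.1% had this order too.

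Sites that were open with the Notch ligand from DN1 onwards were sought by setting the 6 Delta1-cultured libraries against the 6 LSK and IgG libraries. These sides also differ in culture (LSK cells were not cultured), in the gates of the sort and in IL-7 (DN2 only). A rise with Delta1 therefore means higher values in the Delta1-cultured libraries, and the ligand alone cannot be told apart. This comparison has 924 divisions, a smallest exact permutation p of 0.00216 and a smallest adjusted p of 0.0394. It called 8898 sites higher (5.23% of all) and 463 lower. Of the 64 members 6 were called, all higher: sites 15, 17, 27 and 31 at the CD3 cluster and sites 2 and 15 at Cd247. At the CD3 cluster that is 12.9% of 31 sites and at Cd247 6.06% of 33. The pattern of a peak in all 6 Delta1-cultured libraries and in no other was met by 1.9% of all sites, by 1 at the CD3 cluster and by none at Cd247.

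That site was site 17, between the facing ends of Cd3d and Cd3e, 11325.5 bp from the Cd3e start and past its end. It took 87.6 and 87.8 in DN1, 73.6 and 86.0 in DN2a and 88.0 and 93.4 in DN2b, and had no peak in LSK or IgG. The DN1 values lay within the range of the DN2 values here, while the DN1 libraries had no peak within 1 kb of any of the 3 CD3 gene starts. The difference between Delta1-cultured and other libraries was 86.0 percentile points, and site 17 rose (exact permutation p = 0.00216, adjusted p = 0.0394). With DN1 replicate 1, either DN2a library or either DN2b library left out, the adjusted p was 0.0520 to 0.0584, with the exact p still the smallest possible. On lists of equal length the difference was 68.9 and the adjusted p 0.0368.

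Site 27, in an intron of Mpzl2, the gene of an adhesion molecule on thymic epithelium, lies upstream of Cd3e, at -31864.5 bp from its start. It took 67.7 and 56.9 in DN1, 82.0 and 78.5 in DN2a and 84.1 and 91.4 in DN2b, against 24.2, 22.4 and 0 in LSK and 0 in IgG. It rose by 69.0 points with Delta1 (exact permutation p = 0.00216, adjusted p = 0.0394, and 0.0520 to 0.0584 without any of the same 5 libraries). When lists had equal length, DN1 took 5.56 and 9.19 and DN2 62.3 to 70.8, with no LSK or IgG peak, and the difference was 46.8 (adjusted p = 0.0368, exact permutation test). Every DN2 library also stood above every other library. This order was met by 6 sites of the CD3 cluster window and 1 of the Cd247 window, against 2.67% of all sites. Site 31, past the Mpzl3 start and named after its values were seen, took 68.8 and 38.3 in DN1, 58.0 and 61.0 in DN2a and 75.2 and 80.6 in DN2b, against 24.2, 10.5 and 0 in LSK and 0 in IgG. It rose as well, by 57.8 points (adjusted p = 0.0394, exact permutation test), with no fits made for it without single libraries. That call was lost on lists of equal length, where the difference was 23.5 points (adjusted p = 0.131, exact permutation test) and DN1 took 8.60 and 0.

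Site 15, near the end of Cd3d, was open in all 12 libraries and ranked high in each. Its percentiles were 99.5 and 97.9 in DN1, 99.6 and 97.7 in DN2a and 98.5 and 98.4 in DN2b, beside 92.9, 96.0 and 96.9 in LSK and 92.9, 97.3 and 97.7 in IgG. It lies in the untranslated part of the last Cd3d exon and close to the annotated start of a shorter Cd3d transcript. The rise with Delta1 was 2.98 points (adjusted p = 0.0394, exact permutation test). The adjusted p was 0.118 to 0.146 with any Delta1-cultured library left out and 0.366 at equal list lengths. Site 16, 5385.5 bp past the Cd3d start, took 56.6 in DN1 replicate 1, 43.5 and 57.9 in DN2a and 81.5 in DN2b replicate 2. It was 0 to 21.2 in LSK and IgG and 0 in DN1 replicate 2 and DN2b replicate 1.

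The other sites that were open in all 12 libraries lie by neighboring genes. Site 8, at the start of Ube4a, ranged from 91.8 to 98.9. Site 3, at the start of the ATP synthase subunit gene Atp5l, ranged from 50.7 to 93.1, with its lowest 3 values in IgG. Site 9, upstream of Ube4a, ranged from 64.2 to 89.8. At site 4, also upstream of Atp5l, the DN2 values ran from 75.2 to 85.0 and the LSK values from 65.0 to 80.9, and 2 of the 3 IgG libraries had no peak. None of these 4 sites passed either comparison. Site 23, upstream of Cd3e, was open in both DN1 libraries, at 41.7 and 27.8, and in no other. The remaining 12 sites of the window passed neither comparison, and their highest value was 86.3, at site 30 in DN2b replicate 2. Among them site 26, at the Mpzl2 start, took 22.9 in DN2a replicate 2 and 60.5 and 79.6 in DN2b, with no peak elsewhere. Site 29, in an Mpzl2 intron, took 50.6 and 58.6 in DN1, 15.6 to 37.5 in IgG, 29.5 in LSK replicate 3 and 18.4 in DN2a replicate 1, and had no peak in the other DN2 libraries.

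**Figure D3:**
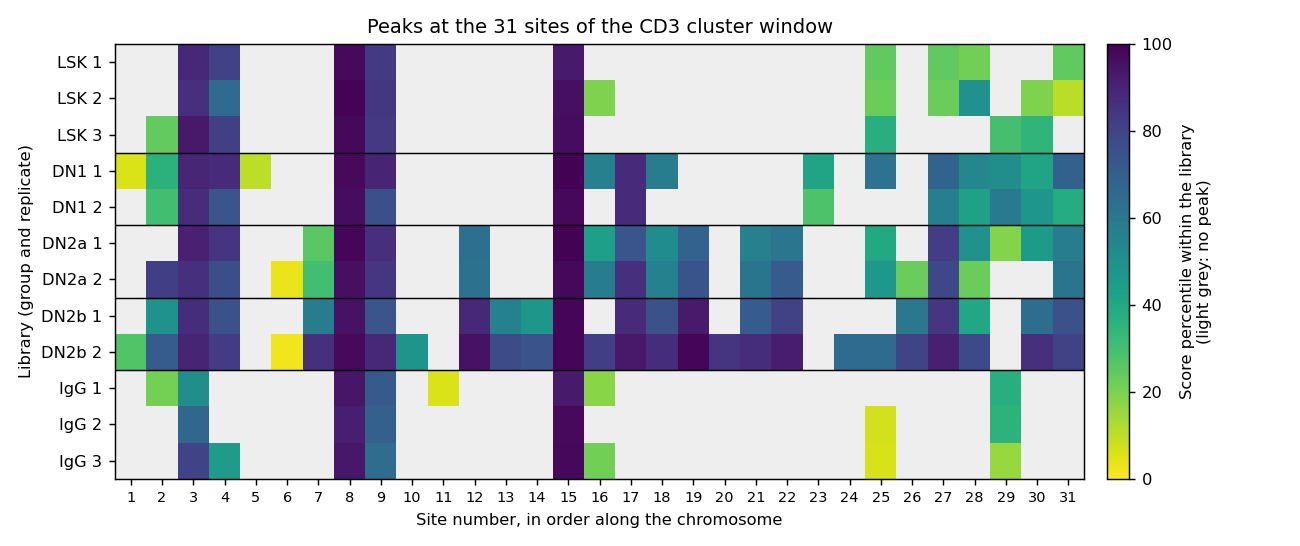
Score percentile within the library for each of the 31 sites of the CD3 cluster window (columns, in chromosome order) in each of the 12 libraries (rows, by group), with light grey where no peak was called. Sites 3, 8, 9 and 15 are filled in every row, sites 7, 12, 19, 21 and 22 only in the 4 DN2 rows, and site 17 in the 6 DN1 and DN2 rows.

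Counted by group, the number of sites of the CD3 cluster open in every library of the group was 13 in DN1, 17 in DN2a and 20 in DN2b, against 6 in LSK and 5 in IgG, of 31. As shares these were 41.9%, 54.8%, 64.5%, 19.4% and 16.1%. Over all sites of the genome the shares were 35.4% for DN1, 26.2% for DN2a, 32.4% for DN2b, 22.7% for LSK and 12.9% for IgG. At an unadjusted p under 0.05, 11 of the 31 sites were higher in DN2, against 9.12% of all sites, and none was lower. Lower sites were few in the genome too, as 15530 of the 18273 sites under this threshold were higher. The median difference between DN2 and other libraries was 26.6 points over the 31 sites and 2.42 over all sites. Of the 31 sites, 5 (16.1%) were called in 1 library alone, 3 of them in DN2b replicate 2. Over all sites 32.7% were called in 1 library alone, and 39.6% of those came from DN2b replicate 2.

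The number of peaks in the window gave 1 value per library. The CD3 cluster window held 18 and 13 peaks in DN1, 19 and 21 in DN2a and 20 and 27 in DN2b, against 9, 13 and 9 in LSK and 8, 6 and 8 in IgG. The mean was 21.8 ± 3.59 in DN2 (SD, n = 4) and 10.5 ± 3.89 in the other libraries (SD, n = 8), and the lowest DN2 library stood above the highest other by 1 peak. The difference of 11.25 peaks had an exact permutation p of 0.00202. With lists of equal length the window held 8 peaks in each DN1 library, 12 and 17 in DN2a and 18 and 21 in DN2b, against 5 to 6 in LSK and 6 to 7 in IgG. The difference was then 10.5 peaks (exact permutation p = 0.00202).

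The same count was made for the windows of all 21755 protein-coding genes. The windows of Cd3e, Cd3d and Cd3g overlap and hold largely the same peaks. Their differences were 10, 8.63 and 9.38 peaks, where the median gene had 1.5. Each had an exact permutation p of 0.00202 and, over all genes, an adjusted p of 0.379. In each of the 3 windows every DN2 library stood above every other library, an order met by 0.519% of genes. At equal list lengths the 3 differences were 9.63, 7.38 and 8.25 (median gene 0), with the same order, met by 2.15% of genes. Their adjusted p was 0.0759. With the exact permutation test no gene passed an adjusted p of 0.05 in either form, while 2496 genes as deposited and 3358 at equal lengths had an unadjusted p under 0.05.

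**Figure D4:**
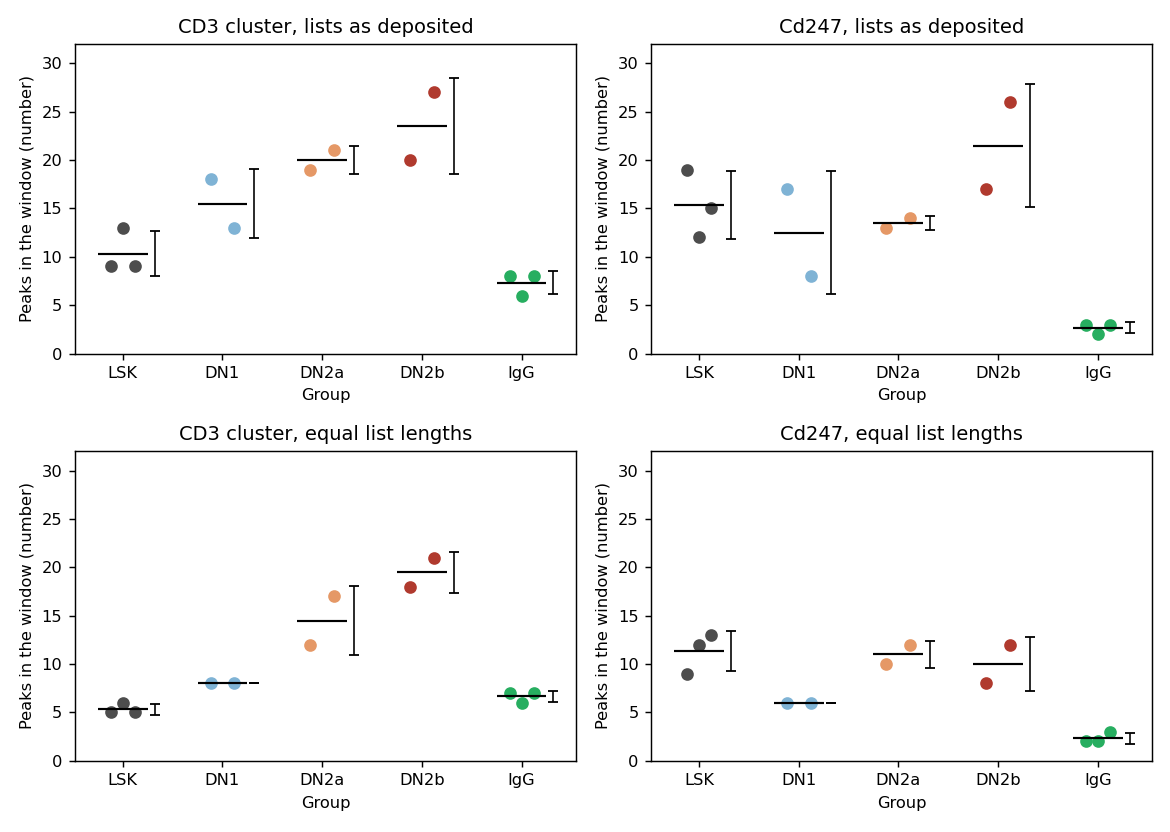
Number of peaks per library in the CD3 cluster window (left) and the Cd247 window (right), for the lists as deposited (top) and the 32952 highest peaks of each list (bottom). Points are libraries, horizontal lines group means and bars the SD around the mean. The DN2 libraries are above all others in the CD3 cluster window in both forms, and the LSK and DN2 libraries overlap in the Cd247 window.

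The window of Cd247, the gene of the ζ chain, held 12 to 19 peaks in the LSK libraries, beside 17 and 8 in DN1, 13 and 14 in DN2a, 17 and 26 in DN2b and 2 to 3 in IgG. The DN2 mean was 17.5 ± 5.92 (SD, n = 4) and the mean of the others 9.88 ± 6.81 (SD, n = 8), and the difference of 7.63 peaks did not pass (exact permutation p = 0.0990). On lists of equal length it was 3.88 peaks (exact permutation p = 0.135), with 9 to 13 peaks in LSK and 8 to 12 in DN2. Of the 33 sites, 21 were open in an LSK library and 4 in an IgG library, that is 63.6% and 12.1%, where all sites gave 44.3% and 29.7%. At the CD3 cluster these were 13 and 10 of 31. Sites open in every library of a group numbered 11 in LSK, 7 for DN1, 10 for DN2a, 16 for DN2b and 2 for IgG.

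The Cd247 promoter was called only in DN2b cells. Site 12, 10.5 bp past the start, took 40.5 in DN2b replicate 1 and 75.6 in DN2b replicate 2, the pattern of the Cd3d promoter. At equal list lengths only 1 library had a peak there. Site 13, 1470.5 bp past the start, was also confined to the DN2b libraries, at 17.8 and 51.0.

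Several sites with high DN2 values lay inside Cd247. Site 15, in an intron 22750.5 bp past the start, took 83.1 and 87.8 in DN1, 91.6 and 90.1 in DN2a and 86.9 and 94.3 in DN2b. It was 0, 39.7 and 0 in LSK and 0 in the IgG libraries. It rose by 82.3 points with Delta1 (exact permutation p = 0.00216, adjusted p = 0.0394), and the adjusted p was 0.0520 to 0.0584 without DN1 replicate 1 or any DN2 library. At equal list lengths the difference was 74.2 and the adjusted p 0.0368. Site 16, at 24240.5 bp, took 50.6 and 35.7 in DN1, 73.6 and 56.2 in DN2a and 0 and 76.8 in DN2b, with no peak in LSK or IgG. It did not pass (adjusted p = 0.134, exact permutation test). With the lists as deposited the DN1 and DN2 values overlapped at site 15. They did not on lists of equal length, where DN1 took 50.4 and 74.3 and DN2 75.6 to 82.6. The Cd247 promoter had no DN1 peak.

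In the Cd247 gene, 4 sites lay close together, 55100.5 to 56870.5 bp past the start. Site 24 took 73.6 and 88.2 in DN2a and 84.7 and 96.9 in DN2b, against 56.8, 51.4 and 54.6 in LSK, 53.7 and 0 in DN1 and 0 in IgG. Every DN2 library stood above every other (exact permutation p = 0.00404, adjusted p = 0.125). On lists of equal length the difference was 63.5 points and the adjusted p 0.0391. Site 25, next to it, took 47.0 to 54.6 in LSK, 33.6 and 0 in DN1, 0 in DN2a replicate 1 and 68.9 to 88.6 in the other DN2 libraries, with no IgG peak. Site 22, 55100.5 bp past the start, took 0 and 44.5 in DN2a and 77.5 and 82.4 in DN2b and had no peak elsewhere. Site 23, between sites 22 and 24, took 30.2 to 59.8 in LSK, 24.9 and 0 in DN1 and 41.4 and 50.6 in DN2a, and had no peak in DN2b or IgG.

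In the Cd247 window 2 of the 33 sites were open in at least 2 LSK or IgG libraries and in no DN2 library, and at the CD3 cluster 0 of 31, where 9.1% of all sites were. Site 30, in a Cd247 intron 67260.5 bp past the start, took 60.4, 82.7 and 65.6 in LSK, 52.2 and 0 in DN1 and 0, 0 and 24.0 in IgG. The DN2 libraries had no peak there (exact permutation p = 0.123). Site 4, in an intron of Creg1 upstream of Cd247, took 36.0 and 34.7 in LSK replicates 1 and 3 and 0 elsewhere. The 19 sites of the Cd247 window that are not described singly passed neither comparison and had no value above 76.8.

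Other sites of the window belong to Creg1, the gene of a secreted glycoprotein, which lies upstream. Site 2, at the Creg1 start, was open in all 12 libraries, with 91.8 to 92.9 in LSK, 95.7 and 98.4 in DN1, 93.5 to 99.1 in DN2 and 83.9 to 85.6 in IgG. It rose by 7.62 points with Delta1 (adjusted p = 0.0394, exact permutation test). The adjusted p was 0.0988 to 0.135 with any Delta1-cultured library left out. Site 6, in a Creg1 intron, ranged from 29.5 to 82.0 over the 12 libraries. Its difference between DN2 and other libraries was -3.12 points, and -30.2 on lists of equal length. Neither passed, with an adjusted p of 0.0898 at equal length (exact permutation test), where the DN2b libraries had no peak. Site 3, in the first Creg1 intron, took 51.4 to 78.9 in LSK, 60.2 and 87.6 in DN1, 64.4 to 84.5 in DN2 and 0 in IgG. Site 7, past the end of Creg1, took 50.8 to 58.1 in LSK, 60.2 and 77.8 in DN1, 57.9 to 75.4 in DN2 and 0 in IgG. Sites 3 and 7 did not pass in the Delta1 comparison (adjusted p = 0.308 and 0.0659, exact permutation test), and site 7 passed without LSK replicate 3 (adjusted p = 0.0409). On lists of equal length their differences were 21.3 and 17.5 points, against 40.8 at each as deposited. Neither passed there (adjusted p = 0.485 and 0.281, exact permutation test). Of the 33 sites, 5 (15.2%) were higher in DN2 at an unadjusted p under 0.05, against 9.12% of all sites, and 8 (24.2%) were called in 1 library alone, 4 of them in DN2b replicate 2, beside the same shares over all sites of 32.7% and 39.6%.

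**Figure D5:**
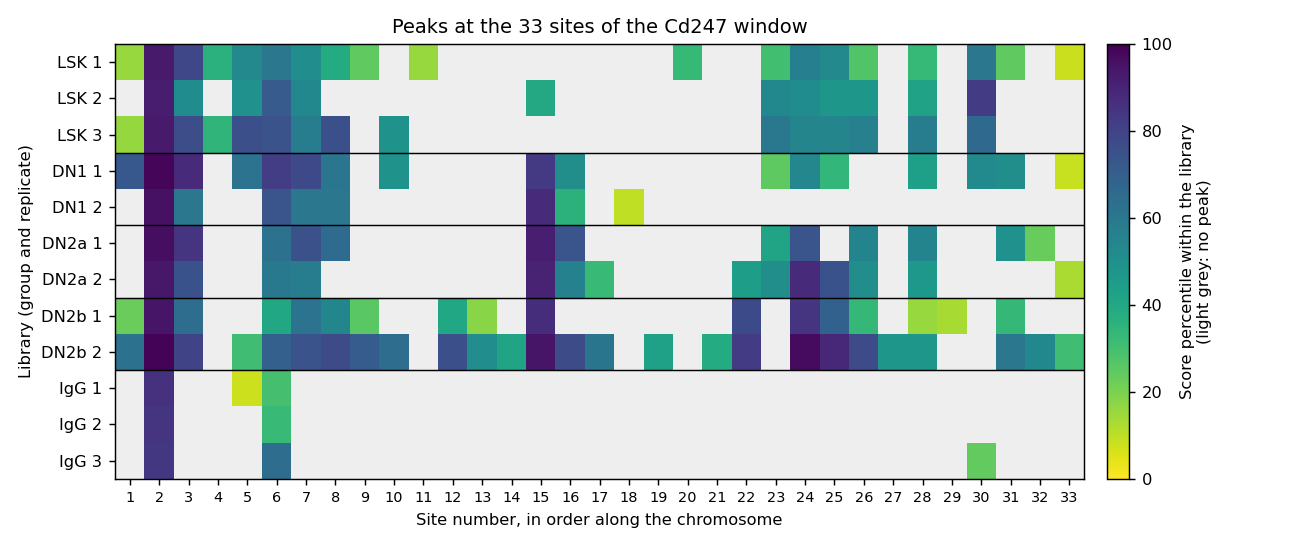
Score percentile within the library for each of the 33 sites of the Cd247 window (columns, in chromosome order) in each of the 12 libraries (rows, by group), with light grey where no peak was called. Sites 2 and 6 are filled in every row, site 15 in the 6 DN1 and DN2 rows and 1 LSK row, and site 30 in LSK rows but in no DN2 row.

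Across all genes the promoter pattern of Cd3e and Cd3g, open in the 4 DN2 libraries alone, was met by 16 of 21755 protein-coding genes (0.0735%). Promoters whose percentile over the 12 libraries ran most like that of Cd3e were those of Slc16a5, a monocarboxylate transporter (Pearson r = 0.999), Cd3g (r = 0.998), the bile acid receptor gene Gpbar1 (r = 0.994), Tnfsf11, which encodes RANK ligand (r = 0.993), and Sh2d2a, which encodes a T cell adaptor (r = 0.991). The 12 points share their libraries, and 8 of them are at 0 for each of these genes. For Cd3g the closest were Cd3e, Tnfsf11 (r = 0.997), Slc16a5 (r = 0.996), Sh2d2a (r = 0.989) and Gpbar1 (r = 0.986). An r above 0.9 was reached by 55 genes for Cd3e and 58 for Cd3g. For Cd3d and Cd247, 10 of the 12 points are at 0, and 147 and 154 genes had an r above 0.9, so the ranking rests on 2 libraries. The first 5 were Tpmt, Gm4951, Hdac7, Tbc1d2b and Ikzf3 for Cd3d, and Tex50, Ms4a6b, St8sia6, Dnajc6 and Tmem150c for Cd247.

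The observed to expected CpG ratio over 2 kb centred on the start was 0.376 for Cd3e, 0.185 for Cd3d, 0.130 for Cd3g and 0.328 for Cd247, at the 41.1, 21, 11.7 and 37.4 percentile of protein-coding genes, whose median was 0.478. The promoters of the neighbors Ube4a (0.572), Atp5l (0.651), Creg1 (0.623) and Pou2f1 (0.934), open in all 12 libraries, were richer in CpG. The Mpzl3 promoter, with a ratio of 0.518 (54.7 percentile), was open in 9 libraries and in none of IgG. Mpzl2, next to Cd3e, had a ratio of 0.202, and its promoter was open in DN2a replicate 2 and both DN2b libraries.

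Other genes of T cell receptor signaling were read at their promoters, over a list of 26. In the comparison of Delta1-cultured with other libraries 8 of the 26 promoters were higher at an adjusted p of 0.05 and none lower. Of the 21755 protein-coding genes 4.77% were higher and 44 genes were lower. They included Lck, Fyn, Lcp2, Txk, Grap2, Cd5 and Cd7 (each adjusted p = 0.0436, exact permutation test). Of the 5 natural killer and innate promoters 2 were also higher, Nkg7 and Klrb1c (each adjusted p = 0.0436, exact permutation test), and none lower. On lists of equal length, an alternative chosen after seeing the data, none of the 26 and 0% of all protein-coding genes passed, since the smallest adjusted p was then 0.0707 (exact permutation test). At an unadjusted p under 0.05, 7 of the 26 were then higher and none lower, against 6.33% of all genes higher (1378) and 1446 genes lower. Lck, the kinase that phosphorylates CD3 tails, had a mean percentile of 63.9 in DN1, 67.3 in DN2a and 80.1 in DN2b, against 17.5 in LSK and 0 in IgG. Lcp2, the adaptor SLP-76, had 71.2 in DN1, 77.2 in DN2a and 85.8 in DN2b, against 17.6 in LSK and 0 in IgG. With the lists as deposited the Lck and Lcp2 promoters had peaks in both DN1 libraries, unlike the 4 members. On lists of equal length Lck was open in 6 libraries, against 8 as deposited, and had no peak in DN1 replicate 1. Lcp2 was open in 7 libraries in both forms.

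None of the 26 was open in the 4 DN2 libraries alone. The surface genes Cd6 and Thy1 were open in the DN2b libraries alone, as Cd3d and Cd247 were, with means of 30.9 and 63.4. Cd6 was open in none on lists of equal length, Thy1 and Cd247 in 1 library each and Cd3d in 2. Fyn, Vav1 and Cd5 were open in all 12 libraries, while Ptcra, Zap70, Skap1, Cd4, Cd8a and Cd8b1 had no promoter peak in any. Between 13 and 16 of the 26 were open in a DN1 library, 10 to 14 in DN2a and 15 to 19 in DN2b, against 7 to 10 in LSK and 5 to 6 in IgG. At equal list lengths these were 10 to 11, 10 to 12 and 13 to 14, against 6 to 7 and 5 to 6.

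Of 5 genes of signaling subunits that other lineages use in place of CD3, Hcst (DAP10, which signals without this motif) was open in all 12 libraries, Tyrobp in 10 and Fcer1g in 8, and Cd79a and Cd79b, the B cell receptor chains, in none. On lists of equal length Fcer1g was open in 2 libraries, while Hcst and Tyrobp were open in 12 and 10. None of the 5 was called in the Delta1 comparison. Of 12 regulators known in the early T program, Tcf7 and Bcl11b were higher with Delta1 and Spi1 was lower (each adjusted p = 0.0436, exact permutation test). Over all 21755 protein-coding genes, 1037 promoters were called higher and 44 lower. None of the 12 regulators passed on lists of equal length (adjusted p = 0.404 for Tcf7 and 0.0707 for Bcl11b and Spi1, exact permutation test). At an unadjusted p under 0.05, 2 of the 12 were then higher and 3 lower, against 1378 and 1446 of all genes. The Bcl11b promoter, of a factor needed for T lineage commitment, had means of 65.7 in DN1, 95.8 in DN2a and 96.9 in DN2b, against 18.2 in LSK and 0 in IgG. That of Tcf7, which encodes TCF1, had 44.4 in DN1, 59.5 in DN2a and 63.6 in DN2b. Tcf7 had a peak in the 6 Delta1-cultured libraries alone, like site 17 of the CD3 cluster, and in 4 libraries on lists of equal length.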

How the data were processed

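DNase-seq libraries were analysed from their peak lists. Paired-end reads had been aligned to mm10 by the authors, who ran hotspot2 (false discovery rate 0.05) on each library alone. The submitters' processing notes name BWA 0.7.12 and SAMtools 1.2. The deposited score, a whole number from 1 to 150, has no stated meaning and was used only as a mid-rank percentile within its list. Peaks on the autosomes and X that overlapped by at least 1 bp were merged. Starts and genes came from GENCODE M21. A promoter was open when a peak midpoint lay within 1 kb of the gene start.

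Mean percentiles and peak numbers were compared by exact permutation of libraries, two-sided by the size of the difference, with Benjamini-Hochberg adjustment over all 170207 sites or 21755 genes (Python 3.11.15, NumPy 2.4.6, pandas 2.3.3). The code was tested on simulated data. The study's test on read profiles needs reads and was not used here. List length was handled by repeating the analysis on the 32952 highest peaks of each library.

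The members, gene lists and motif words were chosen with earlier results of these data known. Sites named were those at a member's start, per locus the 6 highest by DN2 median among sites not open everywhere, the 3 highest open in all libraries, and up to 3 open in at least 2 LSK or IgG libraries and no DN2 library. Sites 7, 9, 14, 16, 18, 23, 26, 29 and 31 of the CD3 cluster and 13, 22 and 23 of Cd247 were added after their values were seen. Sequences shown are those at a member's start and, per locus, the 3 highest by DN2 median among sites not open everywhere. Site 24 of Cd247, which this rule also names, is not shown. Some items that these rules and lists name are not reported here. Coordinates are mm10 and 1-based.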

Additional observations from a re-analysis of the deposited data

How the results depend on the processing

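The DN2 pattern at the CD3 cluster (4 to 6 sites) and the difference in peaks there (exact permutation p at most 0.00606) held under every alternative tried. The number of sites moved with the window: at the CD3 cluster 19 at 25 kb and 61 at 100 kb, and at Cd247 56 at 100 kb and 19 at equal list lengths. Sites open in all Delta1-cultured libraries alone at the CD3 cluster were 2 at equal list lengths, in the upper 50% of each list and at 100 kb. At Cd247 there was 1 in the upper 50%. With 1 library left out, this number ran from 1 to 2 at the CD3 cluster (2 without DN1 replicate 2) and from 0 to 1 at Cd247 (1 without LSK replicate 2 or DN2b replicate 1). The number of DN2 sites at Cd247 ran from 0 to 1 (1 without DN2a replicate 1). The Cd3d promoter counted as open in 4 libraries with a half-window of 2.5 kb, which takes in site 12 at the Cd3g start. It counted as open in 12 when any protein-coding start counted, and the Cd247 promoter in 1 at equal list lengths. Promoters called higher with Delta1 numbered 0 at equal list lengths in each list (8 of 26 signaling genes and 2 of 12 regulators as deposited). Of the comparisons at named sites under all alternatives, 690 kept their direction and side of the threshold (adjusted p of 0.05), 28 no longer passed and 8 passed only there, 7 of them DN2 comparisons at equal list lengths (adjusted p = 0.0391, exact permutation test). In 4 the sign changed, and none of these passed in either form: at equal list lengths site 8 of the CD3 cluster (DN2 -1.32, Delta1 -1.91) and site 6 of Cd247 (Delta1 -18.0), and without DN2b replicate 1 site 6 of Cd247 (DN2 2.68, with -7.61 to 2.68 over all libraries left out in turn). The cause was not tested. Read depth is unknown, so a missing peak in the shorter lists, IgG above all, does not show closed chromatin. Groups of 2 or 3 libraries cannot give an exact p under 0.05 against each other (smallest 0.1 for 3 against 3 or 2, 0.333 for 2 against 2). No paired analysis was possible because the labels give no replicate numbers, and those used here follow deposition order.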
